A study of Mus musculus with 31 samples.

Results

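Immediate early genes are the first genes that a cell transcribes after a stimulus, before any new protein is needed. The 10 genes described here are Egr1, Fos, Fosb, Jun, Junb, Nr4a1, Arc, Ier2, Dusp1 and Btg2, chosen by symbol as a set that is commonly read together with Egr1. Each had 1 probe, so the set comprised 10 of the 25697 probes on the array and 10 of the 16593 genes that had a probe. Of these, 7 were measured, meaning that their probe was detected (detection p under 0.05) on at least 6 of the 31 arrays. Nr4a1, Arc and Ier2 did not pass this filter and were left out of the tests across probes.

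The samples were whole retinas from a pair of mouse models of insulin-deficient diabetes and their non-diabetic comparison groups, all of the strain C57BL/6J. The Ins2Akita group (9 arrays) had the genotype Ins2Akita/Ins2, in which 1 of the alleles of the insulin gene Ins2 carries a dominant mutation that damages pancreatic beta cells, and was set against the WT group (8 arrays, genotype Ins2/Ins2). The STZ group (6 arrays) had been made diabetic with streptozotocin, a compound toxic to beta cells, and was set against the untreated Control group (8 arrays). Hyperglycaemia had lasted 3 months in both diabetic groups. The labels give neither the age nor the sex of the mice, nor the streptozotocin regimen, nor whether each sample came from a separate animal, so the p-values reflect the variation among these arrays, which may be technical.

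Immediate early transcription is driven by calcium, cAMP and MAP kinase signals that act through serum response factor with its partners and through CREB, already present on the promoters. The transcripts are unstable, so their level at a given moment follows the minutes to hours before the tissue was taken. In retina they are known to respond to light, to injury and to growth factors. Egr1 (zinc finger), Fos, Fosb, Jun and Junb (AP-1 subunits) and Nr4a1 (orphan nuclear receptor) encode transcription factors. Arc encodes a protein of the postsynapse, Ier2 a nuclear regulatory protein, Dusp1 a phosphatase that inactivates MAP kinases and Btg2 an antiproliferative cofactor of mRNA deadenylation.

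Arrays carry no read depth, and the number of arrays limits the precision. Between 14581 and 16460 probes were detected per array, and the correlation between any 2 arrays was 0.954 to 0.994 over the 16743 probes that passed the filter. The Muller glia genes Rlbp1 and Glul were detected on all arrays of every group, as the label of retina requires. Lens crystallin markers varied widely within every group (score -3.82 to 3.57 in Ins2Akita, -0.29 to 4.48 in STZ, -3.66 to 4.67 in Control and -3.7 to 3.33 in WT, as the mean log2 deviation of 14 markers). Apart from Ins2Akita replicate 9, which sat on the BeadChip of the STZ arrays, every group had a separate BeadChip, so BeadChip and group cannot be told apart. In whole retina, fewer cells of a type and less RNA per cell cannot be told apart either.

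The promoters of 7 members were in the RefSeq promoter table (build GRCm38.p6), each as 250 bases before to 50 bases after the gene's start. Egr1, Arc and Ier2 had no entry. The 200 bases before the start are printed for 4 members whose data the results turn on: Fos, which moved with Egr1 between arrays, Jun, which varied least in WT among the 7 measured members, and Junb and Btg2, which differed in opposite directions between Control and WT. Each sequence runs 5′ to 3′ on the strand of the gene, and capitals mark TGACG or its complement CGTCA, the core of the cAMP response element bound by CREB. The stretches are chr12:85473690-85473889 (plus strand) for Fos, chr4:95052223-95052422 (minus strand) for Jun, chr8:84978749-84978948 (minus strand) for Junb and chr1:134079156-134079355 (minus strand) for Btg2.
Fos: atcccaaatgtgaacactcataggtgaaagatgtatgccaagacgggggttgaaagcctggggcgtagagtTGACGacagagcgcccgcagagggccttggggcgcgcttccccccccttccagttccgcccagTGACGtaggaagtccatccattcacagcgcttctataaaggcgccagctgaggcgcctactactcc
Jun: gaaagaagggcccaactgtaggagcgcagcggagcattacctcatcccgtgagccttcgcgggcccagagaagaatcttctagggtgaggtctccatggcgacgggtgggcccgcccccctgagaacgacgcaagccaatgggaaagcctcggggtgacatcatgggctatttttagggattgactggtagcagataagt
Junb: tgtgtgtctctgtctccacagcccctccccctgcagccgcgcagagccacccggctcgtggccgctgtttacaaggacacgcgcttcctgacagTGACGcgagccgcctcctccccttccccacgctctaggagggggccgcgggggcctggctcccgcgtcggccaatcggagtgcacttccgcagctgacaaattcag
Btg2: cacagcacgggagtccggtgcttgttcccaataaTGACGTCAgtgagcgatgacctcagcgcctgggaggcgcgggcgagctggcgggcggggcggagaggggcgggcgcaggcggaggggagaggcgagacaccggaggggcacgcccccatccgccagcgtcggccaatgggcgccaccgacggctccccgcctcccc

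Matches were searched on both strands of the 300-base windows. TGACG was found in 6 of the 7 member promoters (Fos, Fosb, Junb, Nr4a1, Dusp1 and Btg2, with Jun the exception), against 20.8% of 32851 promoters of the same length in the table. In Fos it lay at -129 to -125 and at -66 to -62 from the start, and in Junb at -106 to -102. The full element TGACGTCA, which holds the shorter motif on each strand, was found in Btg2 (-166 to -159) and Dusp1 (-143 to -136), 2 of 7, against 1.79% of all promoters. The EGR site GCGGGGGCG was found in Fosb and Nr4a1, 2 of 7, against 2.91% of all. The AP-1 site TGAGTCA was found in 0 of 7 and in 5.2% of all, and the CArG box of serum response factor in 0 of 7 and 1.63% of all. These matches describe the letters of the windows, and no match says only that the letters are not in this window.

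Egr1 (chromosome 18, 1 probe) had WT values that were far apart. On the log2 scale after background correction and quantile normalization, Egr1 levels in Ins2Akita ran from 9.2 to 11.72 with a median of 10.38. In WT, replicates 1 to 8 had Egr1 levels of 10.9, 14, 13.75, 13.74, 10.56, 12.99, 11.42 and 10.66. WT replicates 2, 3, 4 and 6 thus lay above all 23 arrays of the other groups, whose highest value was 11.77, and the other 4 WT replicates lay inside the range of the Ins2Akita arrays. In the STZ group Egr1 ran from 10.33 to 11.77 with a median of 11.04, and in Control from 9.44 to 11.59 with a median of 10.8. The STZ and Control values overlapped.

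The deposited intensities show the same on a linear scale. Egr1 had intensities of 554 to 3370 with a median of 1300 in Ins2Akita, against 1530 to 16400 with a median of 5940 in WT. In STZ the intensities were 1300 to 3410 with a median of 2120, against 695 to 3050 with a median of 1740 in Control. On the log2 scale, 6 of the 9 Ins2Akita arrays lay below the lowest WT array, as did 3 of the 8 Control arrays.

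**Figure D1:**
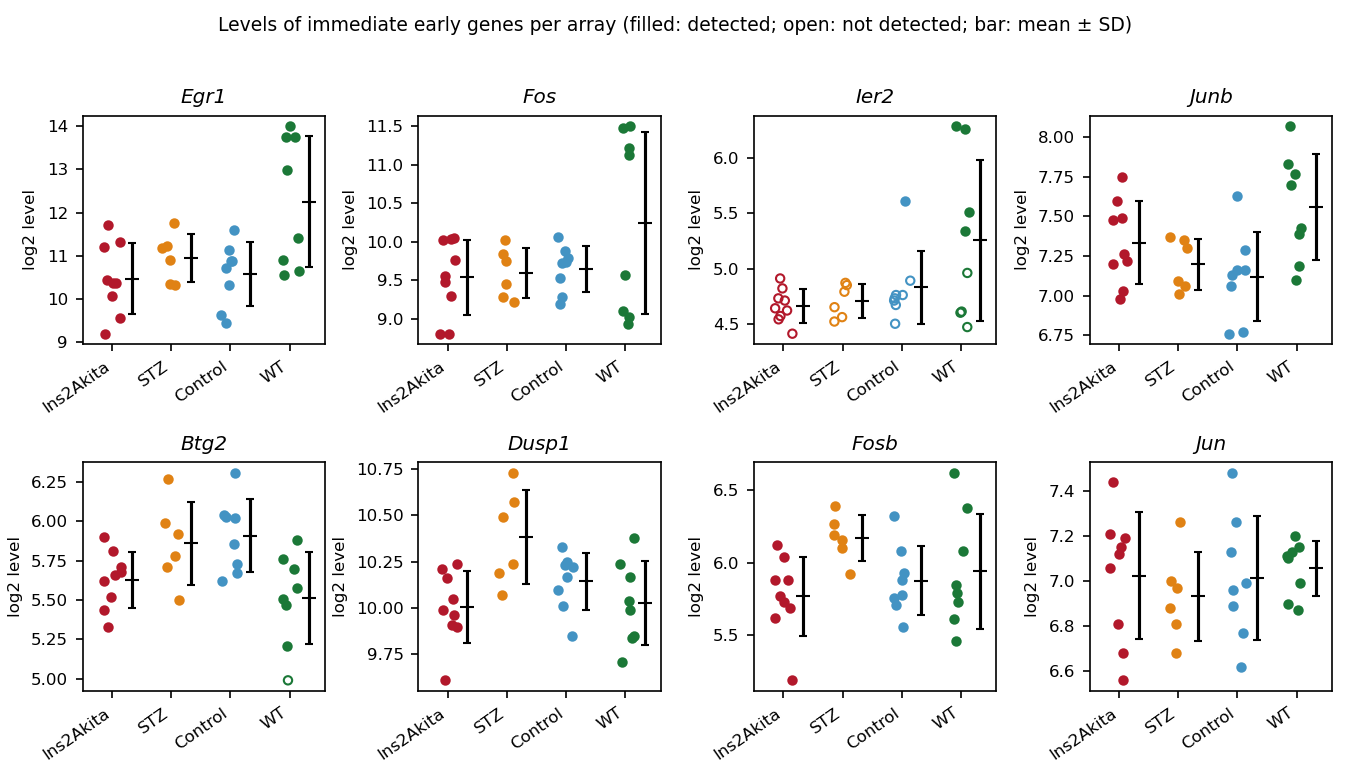
Log2 level (vertical axis, scale set per gene) of 8 members on each of the 31 arrays in the groups Ins2Akita, STZ, Control and WT; filled points are arrays on which the probe was detected, open points arrays on which it was not, and bars give the mean ± SD of the group. Egr1, Fos and Ier2 each have 4 WT arrays set above the other WT arrays, and for Egr1 and Fos these 4 also lie above all 23 arrays outside WT.

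Egr1 fell in Ins2Akita against WT. It averaged 10.47 ± 0.824 (SD, n = 9) in Ins2Akita and 12.25 ± 1.51 (SD, n = 8) in WT, a log2 change of -1.78 (SE 0.451, 95% interval -2.7 to -0.86, adjusted p = 0.0202 in limma). This is 0.291 of the WT level (95% interval 0.154 to 0.55). The change ranked 347 by p among 16743 probes. Egr1 was the only one of the 7 measured members that passed in this comparison, 1 of 7, where 4.16% of all probes passed.

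This call depended on how the spread was estimated. With only these 2 groups in the fit the change was -1.78 with an adjusted p of 0.0702, with BeadChip as a random block -1.76 with 0.0662, and by an exact two-sided permutation of the 17 arrays the exact p was 0.00963, adjusted over all probes to 0.123. The block fit cannot separate BeadChip from group, since apart from 1 array every group had a separate BeadChip. Over all 13 alternatives the adjusted p ran from 0.00502 to 0.123. The adjusted p stayed under the threshold when any 1 of the 31 arrays was left out (log2 change -2.02 to -1.53, adjusted p 0.0105 to 0.0479). The change was -1.53, -1.57, -1.57 and -1.68 without WT replicate 2, 3, 4 or 6. Each of these fits keeps the remaining high WT arrays, so it cannot show how far the call rests on them together.

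In the streptozotocin model Egr1 did not pass. Its mean was 10.96 ± 0.559 (SD, n = 6) in STZ and 10.58 ± 0.737 (SD, n = 8) in Control, a log2 change of 0.38 (SE 0.501, 95% interval -0.64 to 1.4, adjusted p = 0.897). The fit pools the spread of all 4 groups, so this interval is widened by WT, where the Egr1 SD was 1.51. None of the 7 measured members passed here, 0 of 7, where 0.0358% of all probes (6 of 16743) passed in limma. At an unadjusted p under 0.05, 1 of the 7 was found, Dusp1, which ranked 1162 by p among 16743 probes. At least 1162 probes of the array were therefore under that cut. Fosb, the next member, ranked 1530 and missed it, so fewer than 1530 probes were under it. By the exact permutation test 0 probes of the whole array passed. With 3003 splits, that test could pass a probe only if many reached its smallest p together, so its 0 says little. The Egr1 changes of the models differed by -2.16 (SE 0.674, 95% interval -3.54 to -0.79), with an unadjusted p of 0.00312 and an adjusted p of 0.286. The difference between the models thus did not pass for Egr1, nor for the other 6 members, where 0.0179% of all probes passed. At an unadjusted p under 0.05, Egr1 and Fosb were found, which ranked 181 and 858 by p among 16743 probes. At least 858 probes were therefore under the cut here. Dusp1, the next member, ranked 2123 and missed it, so fewer than 2123 probes were under it.

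Between the non-diabetic groups Egr1 fell in Control against WT, by 1.68 on the log2 scale (SE 0.464, 95% interval -2.62 to -0.73, adjusted p = 0.00921). This comparison shares the WT arrays with that of Ins2Akita, so the changes are not independent of each other. Of the 7 measured members, 3 passed between Control and WT (Egr1 and Junb lower, Btg2 higher), where 22.2% of all probes passed. By exact permutation the Egr1 change had an exact p of 0.0183, adjusted to 0.0814, and no longer passed. In the order of group means, WT (12.25) was followed by STZ (10.96), Control (10.58) and Ins2Akita (10.47). No neighbours in this order differed past the threshold: STZ minus WT was -1.3 (adjusted p = 0.0558), STZ minus Control 0.38 and Ins2Akita minus Control -0.1 (adjusted p = 0.894).

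**Figure D2:**
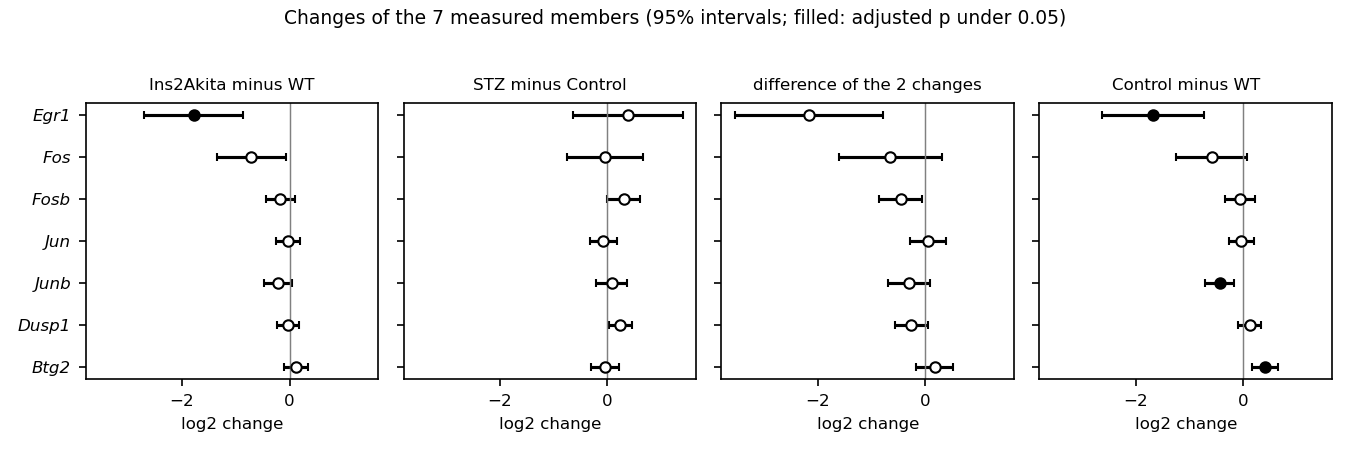
Log2 change (horizontal axis) of the 7 measured members in 4 comparisons, with 95% intervals; filled points passed an adjusted p of 0.05 in limma. Egr1 lies at -1.78 for Ins2Akita minus WT and -1.68 for Control minus WT, while its interval for STZ minus Control runs from -0.64 to 1.4.

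Fos, the partner of the Jun proteins in AP-1, followed Egr1 array by array. In Ins2Akita its log2 levels ran from 8.81 to 10.05 with a median of 9.56. In WT, replicates 1 to 8 had Fos levels of 9.57, 11.48, 11.21, 11.5, 9.03, 11.12, 9.11 and 8.93. The WT replicates above all 23 other arrays, whose highest Fos level was 10.06, were again 2, 3, 4 and 6. In STZ, Fos ran from 9.22 to 10.03 with a median of 9.61, and in Control from 9.19 to 10.06 with a median of 9.74. The remaining 4 WT arrays lay within or below the range of the Control arrays.

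The group means of Fos did not differ past the threshold. Fos averaged 9.54 ± 0.492 (SD, n = 9) in Ins2Akita and 10.24 ± 1.18 (SD, n = 8) in WT, a log2 change of -0.71 (SE 0.313, 95% interval -1.34 to -0.07, adjusted p = 0.205 in limma). STZ minus Control was -0.05 (95% interval -0.76 to 0.66, adjusted p = 0.985), and Control minus WT was -0.59 (95% interval -1.25 to 0.06, adjusted p = 0.192). The fit pools the spread of all 4 groups, so WT widens the STZ minus Control interval. The Fos SD was 0.326 in STZ and 0.299 in Control. For the same reason the intervals of the comparisons with WT are narrower than the spread of the WT arrays would give.

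Fos passed the test of spread within WT. The absolute deviation from the group mean averaged 0.415 in Ins2Akita and 1.16 in WT, and the difference, coded WT minus Ins2Akita, was 0.742 (SE 0.102, adjusted p = 0.000553 in limma). Fos ranked 1 of 16743 probes in this test, in which 0.0299% of probes passed. The rank favours deviations that are alike in size as well as large, as where arrays form a high and a low set. By SD within WT, Fos ranked 65. Against Control, with an average deviation of 0.255, the difference coded WT minus Control was 0.902 (SE 0.105, adjusted p = 1.69e-05), again rank 1, where 0.0717% of probes passed. Both held when any 1 array was left out (adjusted p at most 0.0131 and 0.000486).

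Egr1 varied more in log2 units but did not pass the same test. Its average deviation was 0.664 in Ins2Akita and 1.46 in WT (difference coded WT minus Ins2Akita 0.797, SE 0.198, unadjusted p = 0.000333, adjusted p = 0.155, rank 35). Against Control (0.623) the difference was 0.838 (SE 0.203, adjusted p = 0.102, rank 40). By SD within WT, Egr1 ranked 34 and Fos 65 of 16743 probes, whose median SD was 0.201. Egr1 was also among the more variable probes in the other groups, with SD ranks of 186 in Ins2Akita, 404 in STZ and 204 in Control. The STZ minus Control test of spread gave 0 of the 7 members, where 0.0478% of probes passed, with 0 members at an unadjusted p under 0.05. Dusp1 came nearest to that cut, at rank 1768 of 16743 probes, so fewer than 1768 probes were under it.

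**Figure D3:**
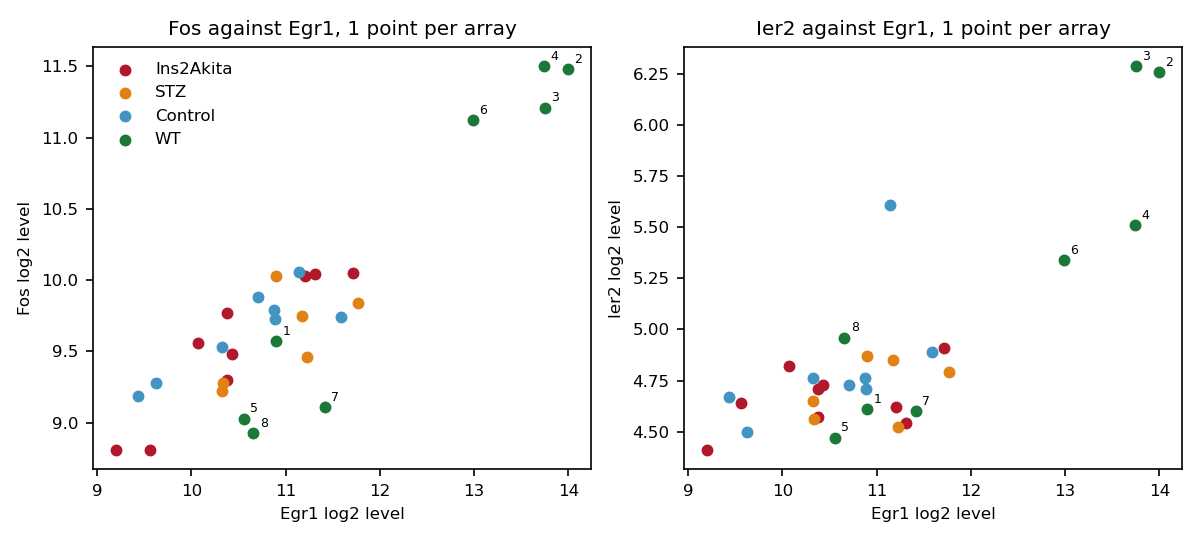
Fos (left) and Ier2 (right) log2 level against the Egr1 log2 level, 1 point per array and coloured by group, with WT replicate numbers beside the points. WT replicates 2, 3, 4 and 6 stand at the upper right in both panels, and outside WT Fos still rises with Egr1 (r = 0.858 over 23 arrays).

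Egr1 and Fos also moved together outside WT. Because the WT arrays fall into separate sets, the relation was computed over the 23 arrays of the other groups as deviations from the group means. Pearson's r was 0.858 and Spearman's rho 0.827 (permutation p = 1e-05 and 2e-05, the first the smallest that 100000 permutations can give). Adjusted over the 6 relations computed, one for each other measured member, these were 6e-05 and 0.00012. Without the 2 arrays farthest from the Egr1 median r was 0.81. Within groups r was 0.929 in Ins2Akita (n = 9), 0.669 in STZ (n = 6) and 0.867 in Control (n = 8), and each group but for 1 array is also 1 BeadChip.

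The other 5 members showed no such relation over the 23 arrays. Their r ranged from -0.185 (Dusp1) to 0.193 (Fosb), with adjusted permutation p-values of 0.539 to 0.566. This pooled r can hide groups that differ. For Fosb, r was 0.638 in Ins2Akita, -0.698 in STZ and -0.137 in Control. For Btg2 it was 0.652, -0.416 and 0.112 in the same groups, none of them tested. Among the 8 WT arrays alone, given as a description, r with Egr1 was 0.972 for Fos, 0.716 for Junb, 0.673 for Btg2, 0.559 for Dusp1, 0.274 for Jun and 0.0267 for Fosb. The order of the WT arrays differed between genes. Fosb was highest on WT replicate 6 and second highest on replicate 5, where Egr1 was lowest.

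Set against every other measured gene, Fos was the one most like Egr1. Likeness was taken as Pearson's r of deviations from the group means over 31 arrays, which includes the 4 high WT arrays, and is given as a description. Each gene was ranked on its probe with the highest r. Fos ranked 1 of 11171 genes (r = 0.921). Btg2 ranked 496, Junb 1460, Dusp1 3096, Fosb 3733 and Jun 6674. The 8 genes next in order outside the set were Ncdn (r = 0.706), Prpf3 (0.677), Zgpat (0.666), Svs5 (0.652), Terf2 (0.649), Chd4 (0.641), Tmem63b (0.639) and Syne1 (0.637). Without the WT arrays their r ranged from 0.431 (Svs5) to 0.607 (Ncdn). None of the 8 passed in Ins2Akita against WT, where their changes ran from -0.21 (Prpf3) to 0.3 (Tmem63b). Between Control and WT, Tmem63b rose by 0.77, Zgpat by 0.43 and Svs5 by 0.36 (adjusted p = 0.00267, 0.00876 and 0.00874), the opposite direction to Egr1. Several of the 8 were near background: Ncdn ran from 4.38 to 5.44 and Svs5 from 4.51 to 5.31. The lowest values of Prpf3 and Syne1 were 4.47 and 4.42.

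**Figure D4:**
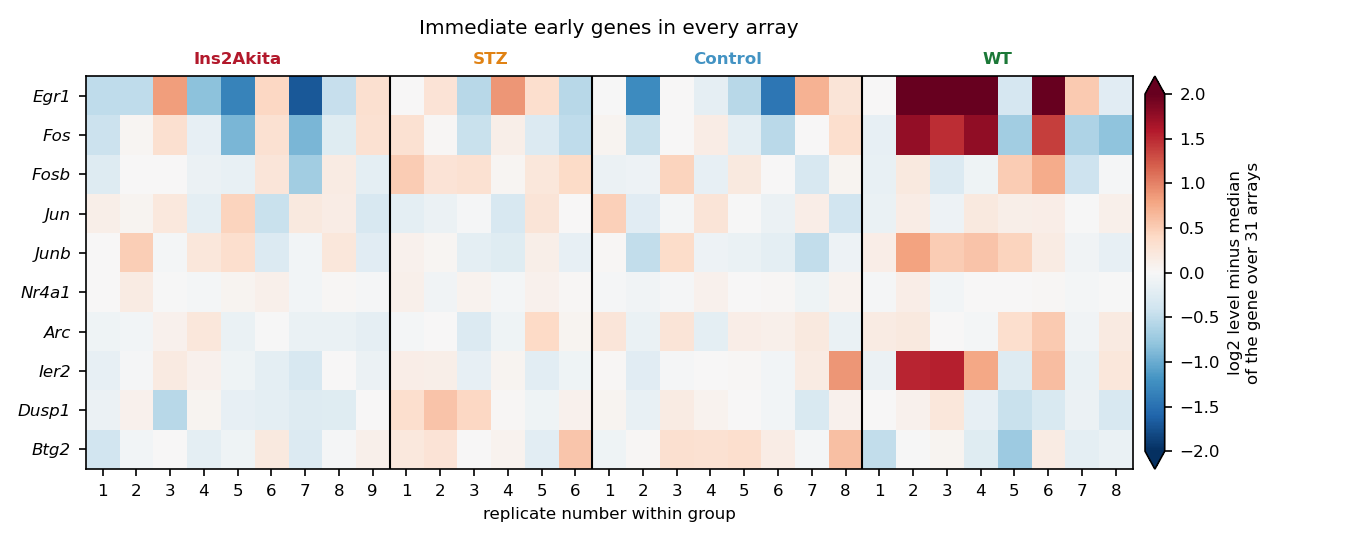
Log2 level of each of the 10 members (rows) on each of the 31 arrays (columns, by group and replicate number), as the deviation from the gene's median over all arrays; the colour scale ends at -2 and 2, and values beyond it have the end colour. Egr1, Fos and Ier2 are red on WT replicates 2, 3, 4 and 6, while Jun and Dusp1 show no such columns.

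Ier2 was near background but was detected on the same WT arrays. Its probe was detected on 0 of 9 Ins2Akita arrays, 0 of 6 STZ arrays, 1 of 8 Control arrays (replicate 8) and 4 of 8 WT arrays (replicates 2, 3, 4 and 6). In Ins2Akita the measured log2 values ran from 4.41 to 4.91 with a median of 4.64, all not well above background. In WT, replicates 1 to 8 had Ier2 levels of 4.61, 6.26, 6.29, 5.51, 4.47, 5.34, 4.6 and 4.96. WT replicates 2 and 3 lay above all 23 other arrays, whose highest was Control replicate 8 at 5.61.

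The group means of Ier2 were 4.66 in Ins2Akita and 5.25 in WT. When each Ins2Akita array takes the higher of its own Ier2 value and its lowest detected signal, Ins2Akita stood 1.28-fold below WT. The WT mean includes arrays on which the probe was not detected, at their measured values. The 1.28 is therefore a description of the means and not a lower limit. In a fit without the detection filter the change was -0.59 (SE 0.197, adjusted p = 0.0956) and did not pass. The higher WT mean came mainly from replicates 2, 3, 4 and 6. WT replicates 1, 5 and 7 lay inside the range of the Ins2Akita arrays. Control minus WT in that fit was -0.43 (adjusted p = 0.169).

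Junb, a member of AP-1 that often opposes Jun, was also higher on several WT arrays. Its levels ran from 6.98 to 7.75 (median 7.26) in Ins2Akita, from 7.01 to 7.37 (median 7.19) in STZ, from 6.76 to 7.63 (median 7.15) in Control and from 7.1 to 8.07 (median 7.57) in WT. WT replicates 2, 3 and 4 lay above all arrays outside WT, and the groups otherwise overlapped. Junb fell in Control against WT, with means of 7.12 ± 0.279 and 7.56 ± 0.334 (SD, n = 8 each), a log2 change of -0.44 (SE 0.131, 95% interval -0.71 to -0.17, adjusted p = 0.0149 in limma). By exact permutation this call was lost (adjusted p = 0.0668). Ins2Akita minus WT was -0.22 (95% interval -0.48 to 0.04, adjusted p = 0.349) and STZ minus Control 0.08 (95% interval -0.21 to 0.36, adjusted p = 0.936).

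Btg2 went the other way between the non-diabetic groups. Its levels ran from 5.33 to 5.9 (median 5.66) in Ins2Akita, from 5.5 to 6.27 (median 5.85) in STZ, from 5.62 to 6.31 (median 5.94) in Control and from 4.99 to 5.88 (median 5.54) in WT. On WT replicate 5, the lowest, the probe was not detected. Btg2 rose in Control against WT by 0.4 on the log2 scale (means 5.91 ± 0.233 and 5.51 ± 0.294, SD, n = 8 each; SE 0.117, adjusted p = 0.014), although 4 of the 8 Control arrays lay inside the WT range. The change also passed by exact permutation (adjusted p = 0.0476). STZ minus WT was 0.35 (adjusted p = 0.0415). Neither diabetes comparison passed: Ins2Akita minus WT was 0.12 (95% interval -0.11 to 0.35, adjusted p = 0.604) and STZ minus Control -0.05 (95% interval -0.31 to 0.21, adjusted p = 0.957).

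Dusp1 was detected on all 31 arrays and had an SD of 0.154 to 0.255 within groups, where the median probe had 0.176 to 0.201. Its levels ran from 9.61 to 10.24 (median 9.99) in Ins2Akita, from 10.07 to 10.73 (median 10.37) in STZ, from 9.85 to 10.33 (median 10.19) in Control and from 9.71 to 10.38 (median 10.02) in WT. STZ replicates 1, 2 and 3 were the highest of all 31 arrays, and the other 3 STZ arrays lay among the Control arrays. STZ minus Control was 0.24 (SE 0.11, 95% interval 0.02 to 0.46, unadjusted p = 0.0371, adjusted p = 0.534). Ins2Akita minus WT was -0.02 (95% interval -0.23 to 0.18, adjusted p = 0.925). STZ stood above WT by 0.35 (adjusted p = 0.0173), a comparison across BeadChips in which 24.8% of all probes passed.

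Fosb and Jun did not pass in any of the 4 comparisons. Fosb levels ran from 5.19 to 6.12 in Ins2Akita, from 5.92 to 6.39 in STZ, from 5.56 to 6.32 in Control and from 5.46 to 6.62 in WT. Its STZ minus Control change was 0.3 (95% interval -0.01 to 0.6, unadjusted p = 0.054, adjusted p = 0.59), and the models differed by -0.46 (unadjusted p = 0.0255, adjusted p = 0.498). Jun levels were nearly equal in all groups, with means of 7.02 in Ins2Akita, 6.93 in STZ, 7.01 in Control and 7.06 in WT. Its WT arrays lay within 0.33 of each other (SD 0.122), rank 14414 of 16743 by SD, on the same arrays where Egr1 spanned 3.44. For Jun, Ins2Akita minus WT was -0.03 (95% interval -0.26 to 0.19) and STZ minus Control -0.08 (95% interval -0.33 to 0.17).

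Arc and Nr4a1 were at background. Arc was detected on 1 of 9 Ins2Akita, 1 of 6 STZ, 1 of 8 Control and 2 of 8 WT arrays, the WT arrays being replicates 5 and 6, with values of 4.45 to 5.24 over all arrays. Nr4a1 was detected on 0 of 31 arrays, with values of 4.27 to 4.52. No fold is given for either gene.

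The medians of the 7 measured members were -0.17 for Ins2Akita minus WT, 0.08 for STZ minus Control, -0.3 for the contrast between both models and -0.06 for Control minus WT. Over all 11172 measured genes the medians were 0, -0.004, -0.006 and 0.011. In the Ins2Akita comparison 6 of the 7 members lay below 0, as did 5574 of the 11172 genes, and only Egr1 passed. Of these members, Jun (-0.03) and Dusp1 (-0.02) were nearly unchanged.

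Marker values that differed between groups in which Egr1 also differed are given here, which does not mean that they followed Egr1 by array. Their part in the result was not tested except where a fit is named. The neutrophil marker score (3 of 5 markers measured) was -0.44 to 0.11 in Ins2Akita, -0.51 to 0.28 in STZ, -0.44 to 0.29 in Control and -0.07 to 1.08 in WT, and the neutrophil gene S100a8 was detected on 3 of 9, 2 of 6, 4 of 8 and 8 of 8 arrays of these groups. In WT replicates 1 to 8 that score was -0.07, 0.22, 0.59, -0.06, 1.08, 0.51, 0.12 and 1.04. It was highest on replicates 5 and 8, where Egr1 was at its lowest in WT. The amacrine and horizontal cell score (6 of 8 markers) was 0.02 to 0.13 in Ins2Akita and -0.23 to 0.04 in WT, and the cone score (7 of 7) -0.17 to 0.18 in Ins2Akita and -0.01 to 0.45 in WT. Beside the Control against WT calls of Egr1, Junb and Btg2, the bipolar score (5 of 6 markers) was -0.1 to 0.18 in Control and -0.17 to 0.01 in WT, and the cone score -0.14 to 0.07 in Control and -0.01 to 0.45 in WT.

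The lens score of WT replicates 1 to 8 was -3.7, -0.98, -0.47, 0.53, 0.76, 3.19, 2.18 and 3.33. On replicates 2, 3, 4 and 6, where Egr1 was high, it was -0.98, -0.47, 0.53 and 3.19. Its part in the Egr1 levels of these arrays was not tested. With the lens and pigment epithelium scores as covariates, Egr1 in Ins2Akita minus WT was -1.75 (adjusted p = 0.0415). By position on the BeadChip, replicates 2, 3, 4 and 6 of Ins2Akita had Egr1 levels of 10.38, 11.72, 10.07 and 11.31, and the same replicates of Control 9.63, 10.89, 10.71 and 9.44. Fewest probes of all arrays (14581) were detected on WT replicate 6.

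The other genes of the pathway were read on their brightest probe, where 4.37% of all genes passed for Ins2Akita against WT, 0.0448% for STZ against Control and 21.7% for Control against WT. Among the EGR and NR4A relatives, 5 of 7 genes were measured and none passed on this probe in any comparison. Egr2 was detected on 1 array and Nr4a3 on 2. Egr3 was detected on 15 arrays and its Ins2Akita minus WT change was -0.1 (adjusted p = 0.52), and Egr4 was detected on 23 arrays with 0.02 (adjusted p = 0.959). Nab1, a corepressor of the EGR proteins, had probes that disagreed: its brightest gave -0.11 for Control minus WT (adjusted p = 0.292), a pair of others -0.97 and -0.89 (adjusted p = 9.17e-05 and 5.33e-05). For Ins2Akita minus WT a further Nab1 probe rose by 0.37 (adjusted p = 0.00813), where the brightest gave -0.04 (adjusted p = 0.79).

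Among the AP-1 relatives 6 of 9 listed genes were measured. None passed in a diabetes comparison, and Mafg rose in Control against WT by 0.29 (adjusted p = 0.0498). Atf3, a stress-induced AP-1 partner, was 0.27 for Ins2Akita minus WT (adjusted p = 0.225), with means of 6.12 ± 0.17 in Ins2Akita and 5.85 ± 0.383 in WT. Of 34 further immediate early genes measured, 0 passed in either diabetes comparison, and between Control and WT 2 rose and 3 fell. These were Vgf (0.32, adjusted p = 0.0232), Fbxo33 (-0.25, 0.0108) and Amigo3 (-0.31, 0.0213), together with Npas4 (0.4, 0.0461) and Ccn1 (-0.4, 0.0402), which were named after their values were seen. On probes other than the brightest, Bdnf rose in Ins2Akita by 0.3 (means 5.03 in Ins2Akita and 4.73 in WT, adjusted p = 0.0228), while its brightest probe gave 0.04 (adjusted p = 0.893) and another -0.19 (adjusted p = 0.511). A Homer1 probe other than the brightest fell in Control against WT by 0.31 (adjusted p = 0.00362), with -0.16 on the brightest (adjusted p = 0.118).

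Of the 11 measured MAP kinase phosphatases and ERK feedback genes, none passed in a diabetes comparison. Dusp4, a phosphatase of nuclear ERK, fell in Control against WT by 0.87 (adjusted p = 0.00443), and a further probe gave -0.45 (adjusted p = 0.0127). Its levels were 6.62 ± 0.484 in Ins2Akita, 5.78 ± 0.393 in STZ, 6.05 ± 0.259 in Control and 6.93 ± 0.625 in WT. Of 16 measured upstream regulators (kinases, CREB, serum response factor and MEF2 proteins) 1 passed in a diabetes comparison. This was Mef2c, which rose in Ins2Akita by 0.36 (adjusted p = 0.0053) on its brightest probe, while its other probes gave 0.12 and 0.07 (adjusted p = 0.696 and 0.725). Between Control and WT 3 upstream regulators rose and 1 fell. Mef2a was among these but its probes disagreed, with 0.41 on the brightest and -0.71 and -0.4 on others. In the BTG and TOB family, Btg1 rose in Ins2Akita by 0.23 (means 12.15 ± 0.0968 in Ins2Akita and 11.92 ± 0.0989 in WT, SD, adjusted p = 0.0151; its other measured probes gave 0.14 and 0.32 and did not pass) and Tob1 fell in Control against WT by 0.3 (adjusted p = 0.00711), among 5 measured genes.

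**Figure D5:**
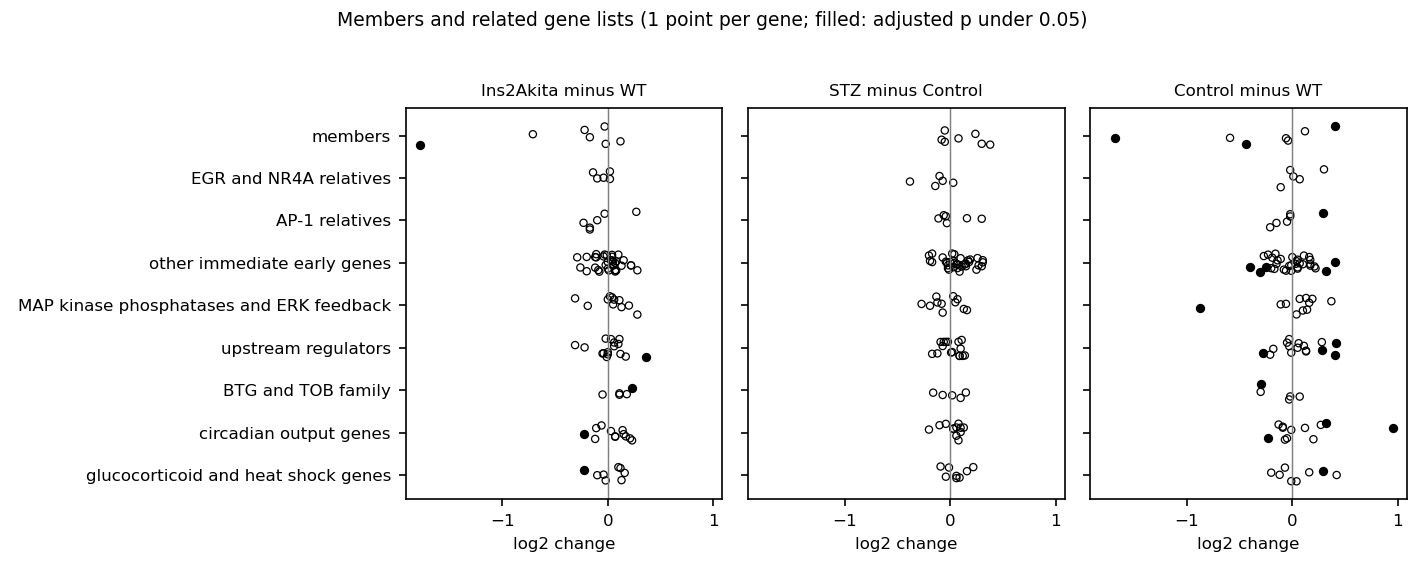
Log2 change (horizontal axis) of each measured member and of the genes of 8 related lists, 1 point per gene on its brightest probe, in 3 comparisons; filled points passed an adjusted p of 0.05 in limma. The 2 points left of -1 are Egr1, at -1.78 for Ins2Akita minus WT and -1.68 for Control minus WT.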

How the data were processed

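Per the labels' protocols, whole-retina RNA was extracted with Trizol, cleaned on columns with DNase, and labelled as biotinylated cRNA for single-colour Illumina arrays. The authors deposited linear probe intensities and, for each probe on each array, a detection p-value, made with BeadStudio per the submitters' processing notes (version not given in the sources used here). From the values, the deposited intensity table had been background-subtracted and scaled to a mean of 351.836 on each array (lowest -22.7772), which hides differences in total signal. The deposited series matrix (mean 403.64) was a linear function of it to within 0.0106596.

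Probe names came from the platform annotation and were updated by Entrez identifier to the gene list of GRCm38.p6: 23978 of 25697 probes had 1 symbol and 1719 were unlisted. From the deposited intensities, log2 values were computed with the neqc function (limma 3.58.1, R 4.3.3, offset 16, which understates changes of dim probes). Probes with a detection p under 0.05 on at least 6 arrays were kept (16743). A model with 4 group means over 31 arrays, and for each probe a spread pooled over the groups, was fitted with lmFit and eBayes. Two-sided p-values were adjusted by Benjamini-Hochberg over all probes kept, with calls at 0.05. Spread was tested by the same fit on absolute deviations from group means. The scripts were tested on simulated data. Alternatives covered normalization, offset, filter, samples in the fit, blocks, weights, covariates, an exact permutation test and leaving out each array.

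All members were named; from each related list up to 5 genes with any probe called, by smallest p; and the 8 genes most like Egr1. The members and lists were chosen with earlier results of these data known. Replicate numbers follow array position. Same-numbered samples correlated above 0.1 in 3 of 8 pairs for Ins2Akita and WT in 1 of 6 for STZ and Control and in 4 of 8 for Control and WT, so not in every pair, and the numbers were not taken as pairs.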

Additional observations from a re-analysis of the deposited data

Results flagged for a closer look

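Within groups of 6 to 9 arrays, the highest or lowest array was set against its nearest neighbour with Dixon's test, for 41 genes in 4 groups. Of 164 groups tested, 7 had an array that stood apart, and chance gives about 1 in 20. Among the members, Ier2 stood apart on Control replicate 8 (5.61 on the log2 scale, nearest other Control array 4.89), where its probe was detected. Nr4a1 stood apart on WT replicate 2 (4.5, nearest 4.38), at a level not above background on any array. Among the related genes, Dusp6 was low on STZ replicate 5 (9.08, nearest 9.68) and Hspa1a was low on the same array (9.44, nearest 9.82). Mef2c was high on STZ replicate 1 (11.41, nearest 10.98) and Per2 on STZ replicate 4 (9.88, nearest 9.59). Hspa1a was high on Ins2Akita replicate 9 (9.83, nearest 9.53), the Ins2Akita array that lay on the BeadChip of the STZ group. Egr1 and Fos in WT were not among these, since several WT arrays were high together.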

How the results depend on the processing

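No called value of a member changed sign under any alternative, and outside the leave-one-out fits 8 values that passed in neither setting changed sign. The fall of Egr1 in Ins2Akita against WT missed the threshold with only the 2 groups compared (-1.78, adjusted p = 0.0702), with BeadChip as a random block (-1.76, 0.0662) and by exact permutation (-1.78, 0.123), so that 0 members passed in each of these. With the series matrix values 2 passed, Egr1 and Fosb (-0.23, 0.0188). Between Control and WT only 1 member passed by exact permutation, Btg2: Egr1 was -1.68 (0.0814) and Junb -0.44 (0.0668). Causes were not tested beyond each alternative's construction, and the BeadChip block cannot separate BeadChip from group.

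Probes passing in Ins2Akita against WT numbered 3953 with the series matrix values, 448 with only the 2 groups and 228 with BeadChip as a random block, against 696. In STZ against Control they numbered 2 (series matrix), 10 (offset 50), 0 (only the 2 groups), 1 (BeadChip), 24 (array weights), 0 (lens and pigment epithelium covariates) and 0 (exact permutation, limited by its 3003 splits), against 6. For the difference between the models they numbered 12 (series matrix), 6 (offset 50), 6 (no detection filter), 1 (BeadChip), 11 (array weights), 7 (trend and robust) and 6 (covariates), against 3. The split of calls in Ins2Akita against WT was 295 higher and 401 lower, 146 and 374 with median scaling, and 470 and 3483 with the series matrix, and in Control against WT 1902 and 1821, and 1166 and 2524 with median scaling.

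Leaving out 1 array gave 2 to 24 probes in STZ against Control (24 without WT replicate 7, 21 without STZ replicate 5) and 1 to 9 for the difference between the models (9 without WT replicate 4, 1 without STZ replicate 5). With replicate number as a block (replicate block, in which Ins2Akita replicate 9 has a number of its own) Egr1 was -1.87 in Ins2Akita against WT (adjusted p = 0.0234), 17 probes passed in STZ against Control, and no member's call changed. With array position as a block 27 passed. The spread of Fos in WT and its correlation with Egr1 kept their calls under every alternative run (r 0.858 to 0.938). The correlation without WT was chosen after seeing the data. The mean of all probes was not run, since every member has 1 probe, and the exact permutation and 2-group fits give no value for the difference between the models. The detection limit leaves Ier2, Arc and Nr4a1 out of the tests across filtered probes.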

Other observations

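Of 12 measured circadian output genes, 0 passed in STZ against Control and 1 in Ins2Akita against WT, Tef, which fell by 0.23 on its brightest probe (adjusted p = 0.0397 in limma), where 0.0448% and 4.37% of all genes passed. The other Tef probe gave -0.06 (adjusted p = 0.868), and a Ciart probe other than its brightest rose by 0.34 in Ins2Akita (adjusted p = 0.0289), with 0.15 on the brightest (adjusted p = 0.367). Between Control and WT 3 of 12 passed, where 21.7% of all genes did: Per3 rose by 0.95 (adjusted p = 0.000124) and Per2 by 0.32 (adjusted p = 0.00345), and Dbp fell by 0.23 (adjusted p = 0.014). Per1, Nr1d1 and Bhlhe40 were -0.01, -0.13 and 0.2 in that comparison and did not pass. The labels give no time of day at which retinas were taken.

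Of 8 measured glucocorticoid and heat shock genes, 1 passed in Ins2Akita against WT and 1 in Control against WT, where 4.37% and 21.7% of all genes passed. Hsph1 fell in Ins2Akita against WT by 0.23 (adjusted p = 0.0493) and Hspa1a rose in Control against WT by 0.29 (adjusted p = 0.016). The glucocorticoid targets Fkbp5, Sgk1 and Tsc22d3 were 0.13, 0.12 and -0.02 for Ins2Akita minus WT and did not pass.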
